A study of Arabidopsis thaliana with 12 samples.

Results

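Root transcripts of the Arabidopsis mutant sahy1-1 were compared with those of its wild type, Col-0, on 3 ATH1 GeneChips each, which are 6 of the 12 arrays of the series. SAHY1 (AT2G01640) encodes a nucleolar and nuclear protein of ribosome biogenesis, and sahy1-1 carries a T-DNA in the third exon of the gene as the study describes it, while the labels write only sahy1. The arrays were chosen by their titles, and a further 3 arrays of Col-7 and 3 of SAHY1OE, an overexpression line of SAHY1 whose wild type is Col-7 and which is represented by line 4-1 alone, served only to mark changes that are also seen without loss of SAHY1. All plants were 12 d old when roots were taken, with no treatment in any group, and the study describes biological triplicates. Each array gives a MAS5 signal per probe set, a linear brightness that was floored at 1 and taken to log2.

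Ribosomes are built in the nucleolus, where a long precursor RNA is cut and joined to ribosomal proteins by many assembly factors, and plant mutants with impaired assembly often have altered leaves and roots. In a root, the gene families described here serve energy release in mitochondria, detoxification, loosening of cell walls, sugar transport, peptide signals and translation. A probe set was called when the limma adjusted p was under 0.05 and the fold above 2, among probe sets for which some group had all 3 signals at or above the array's 40th percentile (110 to 122 on the 12 arrays). In these whole roots, fewer cells of a type and less RNA per cell cannot be told apart.

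Of 13834 probe sets kept, 328 were called higher in sahy1-1 than in Col-0 (2.37% of those tested) and 244 lower (1.76%). These shares are the reference for every count of called list members below. At an unadjusted limma p under 0.05, 1961 were higher and 1906 lower. A call in Col-7 or SAHY1OE in the same direction, against the same Col-0 arrays, marked 144 of the 328 rises (43.9%) and 36 of the 244 falls (14.8%). With the methods' unpaired test in place of limma the marked shares were 25 of 169 rises (14.8%) and 1 of 116 falls (0.862%), so the size of the marked share depends on the test. For rises, 128 of the marks came from both groups, 9 from Col-7 alone and 7 from SAHY1OE alone, and for falls the numbers were 24, 9 and 3. For reference, 1.27% of the probe sets were called higher and 0.535% lower in Col-7 against Col-0, and 1.25% and 0.376% in SAHY1OE against Col-0. Since all 3 comparisons use the same 3 Col-0 arrays, a Col-0 signal that stands apart enters each of them, and the mark is a count fixed by the rule and no independent repeat.

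The mark was set by calls in Col-7 and SAHY1OE, so the following medians describe the marked and unmarked rises and are no finding. The 144 marked rises had a median log2 fold change of 1.70 in sahy1-1, 1.68 in Col-7 and 1.60 in SAHY1OE against Col-0, and a median of 0.05 in sahy1-1 against Col-7. The 184 unmarked rises had medians of 1.26 in sahy1-1, 0.30 in Col-7 and 0.33 in SAHY1OE. Among these 184, 78 were also called higher against both Col-7 and SAHY1OE, and among the 208 unmarked falls, 92 were also called lower against both. Of the 24 falls marked in both groups, SWEET11 and AT3G29410 were further called lower in sahy1-1 than in either group, and of the 128 rises so marked AT4G12490 was called higher than in either.

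**Figure D1:**
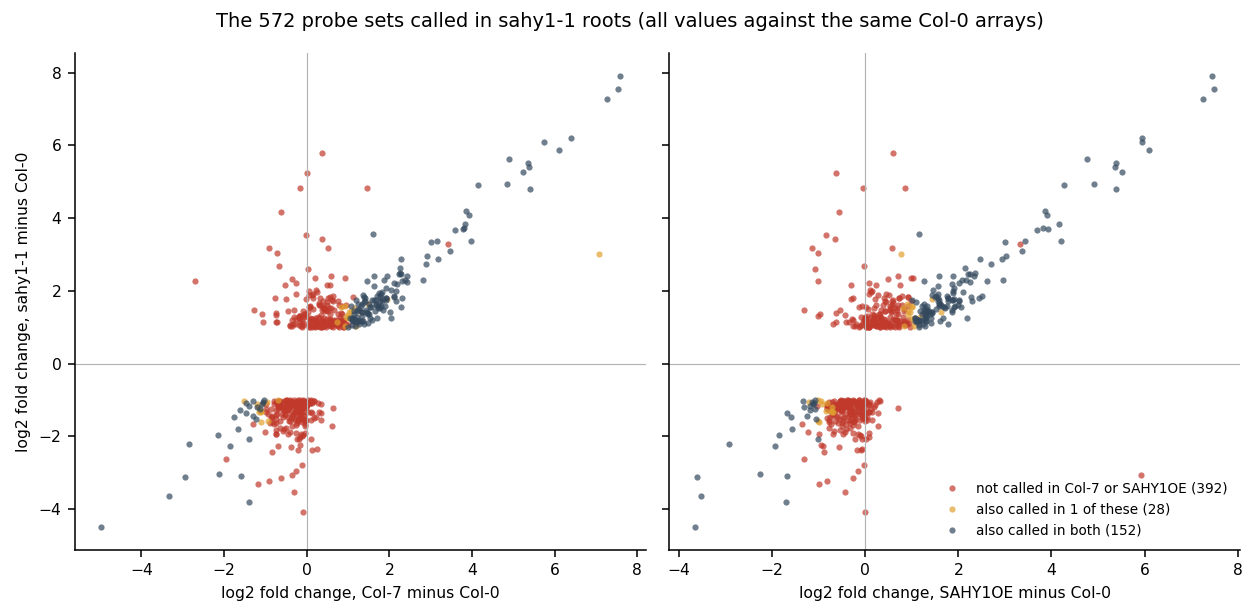
Log2 fold change of each of the 572 called probe sets in sahy1-1 minus Col-0 (vertical axis) against its value in Col-7 minus Col-0 (left) and SAHY1OE minus Col-0 (right), each point a probe set. Points marked in both groups (152, dark) follow the diagonal, unmarked points (184 rises and 208 falls, red) mostly lie closer to 0 on the horizontal axis (medians 0.30 and -0.31 for Col-7), and SAHY1 itself stands at the lower right of the SAHY1OE panel with 5.92. All values share the Col-0 arrays.

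The platform table pairs 301 of the 572 calls with exactly 1 gene, and 37 of these genes have a symbol besides the locus code. A locus code is given below without a role unless the study's own gene list or RefSeq names one. Across all kept probe sets the median log2 fold change was 0.00, and replicate arrays of a group correlated at 0.972 to 0.985 over probe sets, and between groups at 0.921 to 0.981. Markers of green tissue (9 genes such as LHCB4.2 and PSAE-1) had summed signals of 5945 to 6921 in sahy1-1, 6099 to 6853 in Col-7, 5771 to 6135 in SAHY1OE and 4368 to 4922 in Col-0, and none of the 9 was below the filter level on all arrays of any group. Their part in other results was not tested. All 9 lay above 0 in sahy1-1 against Col-0, and their median was 0.51. A limma adjusted p under 0.05 was reached by 4 of them, and by 7.7% of all probe sets in this direction. Against Col-7 the median of the 9 was -0.00. Markers of other root cell types (3 genes) summed to 17939 to 19974 in sahy1-1 and 18386 to 20467 in Col-0. Their log2 fold changes ran from -0.45 for JKD to 0.16 for LBD16, and so few genes cannot describe the cell types of the root.

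SAHY1 was the check of the label. Its signals were 65.5, 7 and 143 in sahy1-1, against 451, 258 and 336 in Col-0, so the groups did not overlap. The log2 fold change was -3.07 (SE 0.72, limma adjusted p = 0.0103). The 3 mutant values spread widely, and without sahy1-1 replicate 2 the log2 fold change was -1.81. SAHY1OE read 20572, 20069 and 20789, and its wild type Col-7 read 284, 260 and 252. Where the probes sit relative to the T-DNA is unknown here. SAHY1 was the only unmarked fall that was called in the opposite direction in another group.

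**Figure D2:**
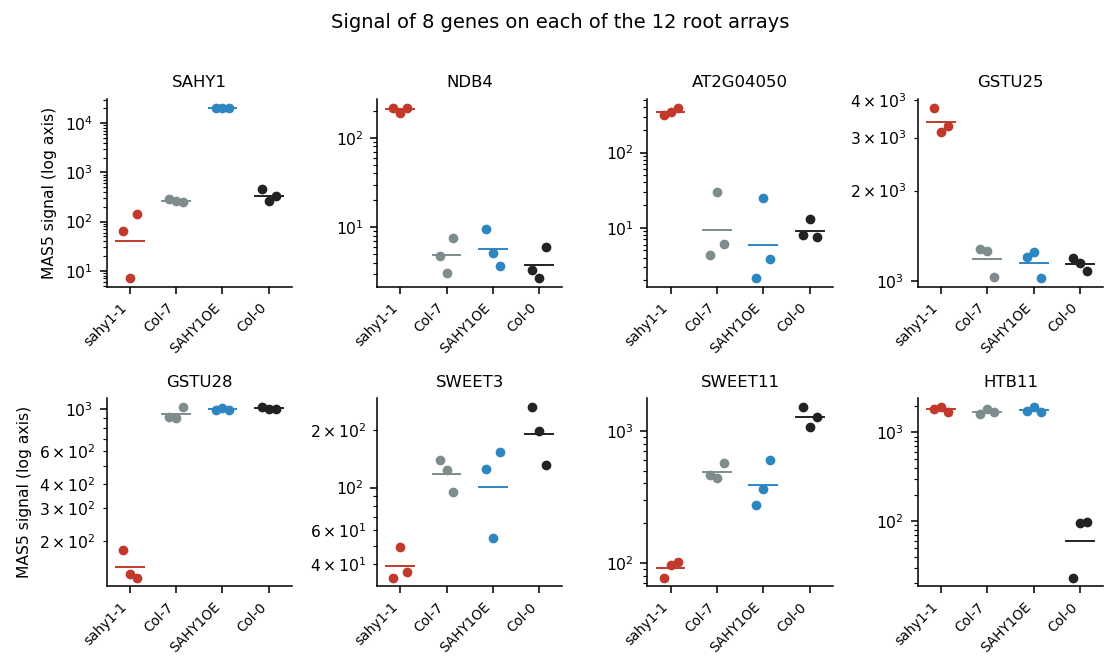
MAS5 signal (log axis) of 8 genes on each of the 12 arrays, grouped as sahy1-1, Col-7, SAHY1OE and Col-0; points are arrays and bars are geometric means. NDB4, AT2G04050 and GSTU25 are high and GSTU28 low in sahy1-1 alone, SWEET3 is lowest in sahy1-1, SWEET11 is lowest in sahy1-1 and highest in Col-0, and HTB11 is low in Col-0 alone.

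Mitochondrial genes held the largest unmarked rise. NDB4, an alternative NADH dehydrogenase on the outer face of the inner mitochondrial membrane, read 217, 190 and 216 in sahy1-1, against 3.33, 2.68 and 6 in Col-0. Its log2 fold change was 5.78 (SE 0.37, limma adjusted p = 2.65e-07). Col-7 (4.8, 3.08 and 7.67) and SAHY1OE (9.61, 5.11 and 3.72) lay near the Col-0 level, so the gene passed the filter level in sahy1-1 only, and the size of the fold rests on signals far below the filter level in Col-0. NDB4 passed the filter through the mutant arrays alone, and it was left out by a filter on the mean of the 12 arrays.

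Of the 4 alternative NADH dehydrogenase genes kept, NDB4 was the only one called. NDB2, a member of the same family, read 1827, 1262 and 1756 in sahy1-1, against 1022, 807 and 1043 in Col-0, 0.74 on the log2 scale (limma adjusted p = 0.00599) that missed the threshold on the fold. NDB2 had -0.42 in Col-7 and -0.43 in SAHY1OE against Col-0, and sahy1-1 was 1.17 above each of them on the log2 scale. NDB1 and NDC1 had values of -0.18 and -0.15.

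Genes of amino acid breakdown and the electron transfer flavoprotein all had negative values. The list holds 9 genes, all kept, with a median of -0.43, and 1 was called. This was MGL, methionine gamma-lyase, with signals of 309, 468 and 434 in sahy1-1 and 695, 977 and 968 in Col-0 (log2 fold change -1.13, limma adjusted p = 0.000659). Its groups did not overlap, but the call was lost without sahy1-1 replicate 1, where the value was -0.95.

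IVD, which oxidizes isovaleryl-CoA from leucine, read 1251, 1653 and 1496 in sahy1-1, against 2192, 2654 and 2860 in Col-0 (log2 fold change -0.81, limma adjusted p = 0.00424). MCCA, a subunit of the carboxylase that acts next on leucine, had -0.61 (limma adjusted p = 0.0249). Set against Col-7, IVD had -0.98 and MCCA -1.04, and MCCA in Col-7 lay 0.44 above Col-0. At an adjusted p under 0.05 without a fold threshold, 3 of the 9 genes were lower and none higher, where 7.32% of all probe sets were lower and 7.7% higher.

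FDH, the mitochondrial formate dehydrogenase, was the 1 gene called of 13 for central mitochondrial dehydrogenases and respiration. FDH read 273, 488 and 420 in sahy1-1, against 854, 908 and 1023 in Col-0 (log2 fold change -1.27, limma adjusted p = 0.000586). The other 12 genes were not called, and the median of the list was 0.03. Of all probe sets, 1.76% were called lower. The methods' unpaired test did not call FDH (adjusted p = 0.0837). FDH had -0.53 in Col-7 and -0.50 in SAHY1OE against Col-0, neither of them called.

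Genes encoded in the plastid were measured with 49 probe sets, and neither limma nor the methods' unpaired test called any (5 had an unadjusted p under 0.05, all lower). An unadjusted p under 0.05 in 5 of 49 is 10.2%, against 13.8% of all probe sets. At a limma adjusted p under 0.05, 4 were lower, 8.16% of the 49 and near the 7.32% of all probe sets, and all 4 lie within 5 consecutive plastid genes in the RefSeq order: accD, psaI, ycf4, cemA and petA. accD, a subunit of the plastid acetyl-CoA carboxylase, had -0.71 on the log2 scale, psaI, a small subunit of photosystem I, -0.61, and ycf4, an assembly factor of photosystem I, -0.68. petA, cytochrome f, had -0.53, while cemA between ycf4 and petA had -0.38 (limma adjusted p = 0.286). ycf4 read 662, 556 and 800 in sahy1-1, against 936, 1104 and 1164 in Col-0, with no overlap. The genes on either side, rbcL and psbJ, had -0.28 and -0.03, and the median over the 49 was -0.10. This run of neighbours was noticed after the values were seen and was not tested. Of 5 genes of the mitochondrial genome that passed the filter, cox1 had -0.80 (limma adjusted p = 0.041), with overlapping groups.

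Glutathione S-transferases join glutathione to reactive compounds, and the called members went both ways. Of 11 kept, 1 was called higher and 3 lower, with a median of -0.31. Of all probe sets, 2.37% were called higher and 1.76% lower. GSTU28 read 179, 135 and 128 in sahy1-1, against 1030, 999 and 1005 in Col-0 (-2.80 on the log2 scale, SE 0.13, limma adjusted p = 1.77e-08). Every Col-7 array (896 to 1028) and SAHY1OE array (986 to 1018) lay close to Col-0, so this fall was seen in the mutant alone among the 4 groups.

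GSTU25 was high in sahy1-1 and near 1 level in the 3 other groups. Its signals were 3773, 3142 and 3286 in sahy1-1, against 1197, 1146 and 1084 in Col-0 (log2 fold change 1.57, limma adjusted p = 3.05e-06). GSTU26, the next gene on the chromosome in the RefSeq order, moved the other way, with 938, 1485 and 1064 in sahy1-1, against 2666, 2542 and 2738 in Col-0 (log2 fold change -1.21, limma adjusted p = 0.000127). Neither gene differed by more than 0.13 on the log2 scale between Col-7 or SAHY1OE and Col-0.

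ATGSTF13, of the phi class, had -1.07 on the log2 scale (limma adjusted p = 0.00215), a call lost without Col-0 replicate 3 (-0.96) or sahy1-1 replicate 2 (-0.85). The other 7 genes were not called. They include GSTU20, GSTU22 and GSTU23, whose values were 0.48, 0.33 and 0.53. GSTU20 lay higher against Col-7, by 0.98 (limma adjusted p = 0.00431), than against Col-0.

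Of 11 kept aldehyde and alkenal reductases and dehydrogenases, another detoxification list, 1 was called higher. The share called higher among all probe sets, 2.37%, is the reference for this list and for the UDP-glycosyltransferases below. AER, an alkenal reductase that removes reactive aldehydes, read 303, 202 and 274 in sahy1-1, against 115, 124 and 115 in Col-0 (log2 fold change 1.12, limma adjusted p = 0.000766), but Col-7 (152 to 247) and SAHY1OE (202 to 228) were also above Col-0, by 0.68 and 0.85, and the call was lost without sahy1-1 replicate 1 (1.00). UDP-glycosyltransferases add a sugar to hormones and other metabolites, and 2 of the 24 kept were called higher. UGT85A2 carried a mark from both groups (1.58 in sahy1-1, 1.31 in Col-7 and 1.33 in SAHY1OE against Col-0), and UGT73B4 did not (1.15, 0.40 and 0.20).

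UGT73B4 read 1027, 808 and 710 in sahy1-1, against 411, 359 and 366 in Col-0 (limma adjusted p = 0.00108). At an adjusted p under 0.05 without a fold threshold, UGT88A1 was also higher (0.84), and UGT71C1, UGT71C2 and UGT76D1 were lower (-0.62, -0.58 and -0.76). Cytochrome P450 genes, which oxidize many plant metabolites, numbered 8, and neither limma nor the methods' unpaired test called any (4 had an unadjusted p under 0.05, all lower). All 4 that were lower at a limma adjusted p under 0.05 belong to the CYP71B group, and CYP71B34 and CYP71B37 had the lowest values, -0.91 and -0.79. CYP71B26 and CYP71B6 were not among them (-0.30 and -0.15), and a fall particular to this group was not tested. Over all probe sets, 7.32% were lower at this adjusted p and 13.8% at an unadjusted p under 0.05. The 8 were kept of 24 on the array. Of these 8, 2 passed the filter through Col-0 without all mutant arrays and so lean lower. The list median was -0.45 in sahy1-1, -0.28 in Col-7 and -0.17 in SAHY1OE against Col-0. TPS-CIN, a terpene synthase that makes cineole in roots, read 355, 282 and 467 in sahy1-1, against 2072, 1030 and 1086 in Col-0 (log2 fold change -1.88, limma adjusted p = 0.00134). It also had -1.01 in Col-7 and -1.22 in SAHY1OE without a call there, and sahy1-1 was not called against either.

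SWEET proteins carry sugars across membranes, and all 5 SWEET genes kept of 14 on the array had lower signals in sahy1-1, with a median of -1.08. Of the 5, 3 were called lower. Of all 13834 probe sets, 6897 lay below 0 and 1.76% were called lower. SWEET11 and SWEET3 passed the filter without all 3 mutant arrays, so the list leans lower. SWEET11, a plasma membrane sucrose exporter of the phloem, read 77, 96.1 and 101 in sahy1-1, against 1526, 1068 and 1284 in Col-0 (-3.82 on the log2 scale, SE 0.24, limma adjusted p = 2.36e-07). Col-7 (466, 438 and 568) and SAHY1OE (274, 364 and 607) lay between, so this fall was marked. It was also called against Col-7 (-2.42, limma adjusted p = 3.3e-05) and against SAHY1OE (-2.11, limma adjusted p = 0.000134).

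SWEET3 read 34, 49.2 and 36.4 in sahy1-1, against 263, 196 and 132 in Col-0 (log2 fold change -2.27, limma adjusted p = 0.000406). SWEET3 was not called in Col-7 (-0.69) or SAHY1OE (-0.90), and sahy1-1 was below both. SWEET16, a transporter of the vacuole membrane, had -1.08 (limma adjusted p = 0.00286), with 371, 545 and 489 in sahy1-1 and 1153, 1134 and 707 in Col-0. Its call was lost when Col-0 replicate 1 (-0.95) or 2 (-0.97) or the first sahy1-1 array (-0.92) was left out.

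SWEET2, a vacuolar glucose transporter of roots, read 734, 642 and 746 in sahy1-1, against 1184, 1445 and 1296 in Col-0 (log2 fold change -0.89, limma adjusted p = 0.00264), under the threshold on the fold. Neither Col-7 (-0.06) nor SAHY1OE (0.08) differed from Col-0 by as much. SWEET17, which moves fructose across the vacuole membrane, had -0.12 with overlapping groups. Of the 5 genes, 2 had passed the filter through Col-0 or another group without all 3 mutant arrays, so those 2 had to come out lower.

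**Figure D3:**
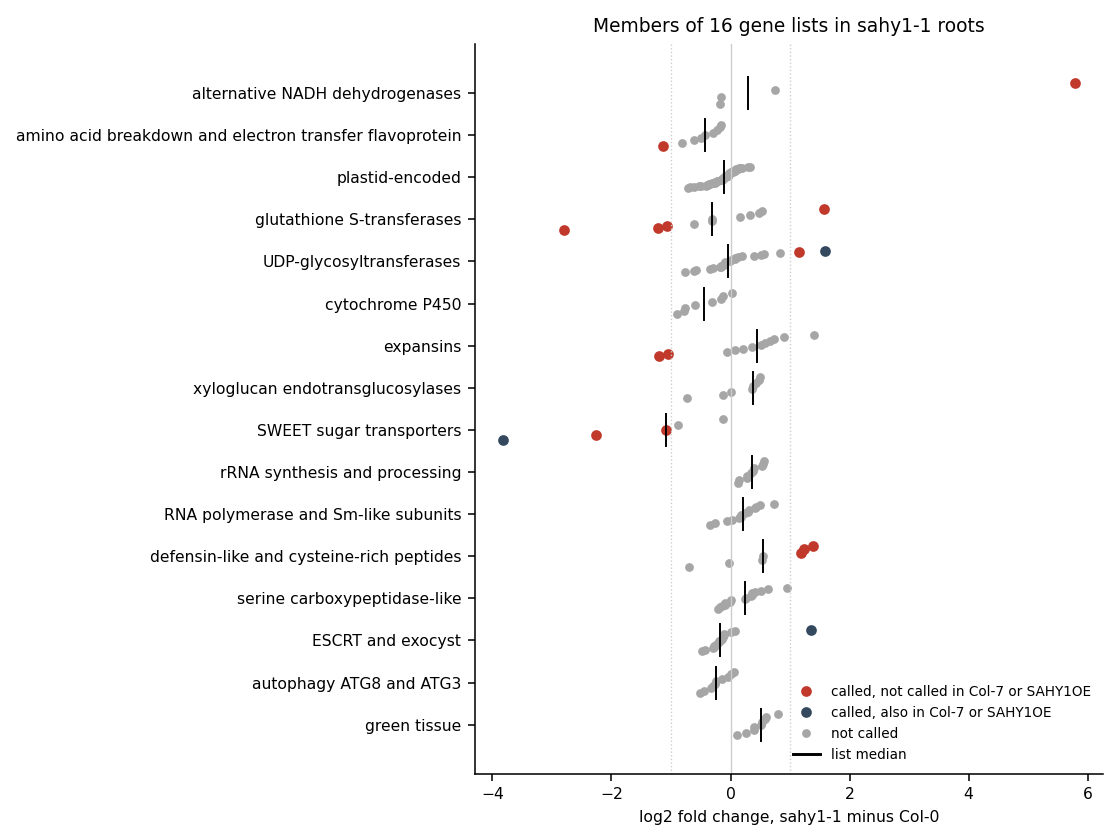
Log2 fold change (sahy1-1 minus Col-0) of every kept member of 16 gene lists, each point a probe set, with the list median as a vertical bar and dotted lines at a 2-fold change. Called members are red where unmarked and dark where also called in Col-7 or SAHY1OE. The SWEET genes all lie left of 0 with a median of -1.08, the rRNA synthesis and processing genes all lie right of 0 with a median of 0.36, and the glutathione S-transferases spread from -2.80 to 1.57. SWEET11 and SWEET3 were kept without all mutant arrays passing the filter, so the SWEET median leans lower.

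Cell wall genes moved in both directions. Of 12 expansins, proteins that loosen cell walls as cells grow, 2 were called lower, where 1.76% of all probe sets were. Both are root hair genes, and these are the only 2 members of the root hair marker list that the platform table names. EXPA18 read 291, 329 and 305 in sahy1-1, against 714, 651 and 753 in Col-0 (log2 fold change -1.19, limma adjusted p = 0.000102), with values of -0.08 in Col-7 and -0.16 in SAHY1OE. EXPA7 read 289, 417 and 288 in sahy1-1, against 589, 704 and 747 in Col-0 (-1.05, limma adjusted p = 0.000593), a call lost without Col-0 replicate 3 (-0.98), sahy1-1 replicate 1 (-0.97) or sahy1-1 replicate 3 (-0.96). Their summed signal was 581 to 746 in sahy1-1, against 1304 to 1500 in Col-0.

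Of the 12 expansins, 9 had values above 0. EXPA4, EXPA8, EXPA9 and EXPA20 had log2 fold changes of 0.73, 0.90, 0.58 and 0.66 (limma adjusted p = 0.0037, 0.00787, 0.0105 and 0.0127), all under the threshold on the fold. EXPA4, the brightest of them, read 6593, 6491 and 6225 in sahy1-1, against 3933, 4076 and 3632 in Col-0, while Col-7 and SAHY1OE differed from Col-0 by -0.10 and -0.02. The list median was 0.44, of opposite sign to both of its calls. EXPA8 and EXLA3 passed the filter through sahy1-1 without all 3 Col-0 arrays, so the median and the count of 9 lean on genes kept for being high in the mutant. EXLA3 had the highest value of the list, 1.40, with overlapping groups and no call (limma adjusted p = 0.13). GH9C1, an endoglucanase also expressed in root hairs, had -0.99 (limma adjusted p = 0.000964), with 260, 294 and 296 in sahy1-1 and 574, 582 and 536 in Col-0.

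Of 3 pectin methylesterases, which remove methyl groups from wall pectin, ATPMEPCRB was called higher and ATPMEPCRD lower. ATPMEPCRB read 266, 285 and 254 in sahy1-1, against 78.7, 78.7 and 22.5 in Col-0 (log2 fold change 2.37, limma adjusted p = 0.000878), and ATPMEPCRD had -1.19 (limma adjusted p = 0.000878). Neither call was marked. ATPMEPCRB passed the filter through sahy1-1 and not Col-0, and the methods' unpaired test did not call it (adjusted p = 0.12). The third, PMEPCRF, had 0.74 in sahy1-1, 0.71 in Col-7 and 0.81 in SAHY1OE. CSLC04, a glucan synthase for xyloglucan, was called higher with a mark from Col-7 (1.52 in sahy1-1, 1.13 in Col-7 and 0.81 in SAHY1OE).

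TBL36, of a family that acetylates wall polysaccharides, was the 1 called of 16, where 2.37% of all probe sets were called higher. It read 4806, 5579 and 5530 in sahy1-1, against 2255, 2390 and 2284 in Col-0 (log2 fold change 1.20, limma adjusted p = 2.38e-05). Col-7 and SAHY1OE lay between with 0.65 and 0.62. Neither limma nor the methods' unpaired test called any of 8 xyloglucan endotransglucosylases (unadjusted p under 0.05 in 4 that were higher and 1 that was lower), and XTH21 had the lowest value, -0.73. Their median was 0.37 against Col-0 and 0.56 against Col-7. Of all 13834 probe sets, 1961 were higher and 1906 lower at an unadjusted limma p under 0.05. Among other wall and vesicle genes, VPS2.2, of the ESCRT-III complex that buds vesicles into endosomes, was called higher with a mark from both groups (1.35 in sahy1-1, 1.14 in Col-7 and 1.23 in SAHY1OE), 1 of 18 in its list.

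Ribosome-related genes that the study listed for this mutant were chosen by it on these arrays, so their direction against Col-0 here is no independent evidence. Separately, the study reports that RT-qPCR verified AT3G49910, AT5G59240, AT5G48760, HLL, AT2G40010 and AT3G28500, and those values were not examined here. Of the 10 genes, 9 have a probe set named here, all 9 passed the filter, 3 of them without all Col-0 arrays, and all were called higher. The marks divided them. AT3G49910, an SH3-like translation protein, AT5G44710, a mitochondrial S27/S33 protein, and AT5G48760, an L13 family protein, were marked by both groups.

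AT5G44710 read 1172, 1293 and 1216 in sahy1-1, against 547, 519 and 540 in Col-0, and Col-7 (1141 to 1166) and SAHY1OE (1125 to 1232) were at the mutant level. AT3G49910 had 17248, 15499 and 14965 in sahy1-1, against 6924, 7752 and 9204 in Col-0, with Col-7 at 14578 to 17735 and SAHY1OE at 16734 to 19000. Its log2 fold change, 1.01, fell under the threshold with quantile normalization (0.97), and when Col-0 replicate 1 (0.91) or 2 (0.99) or the first sahy1-1 array (0.95) was left out. For these genes sahy1-1 did not stand apart from Col-7, with differences of 0.09 for AT5G44710, -0.00 for AT3G49910 and 0.23 for AT5G48760 on the log2 scale.

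The other 6 were unmarked. AT3G28500, a 60S acidic ribosomal protein, read 1101, 1189 and 993 in sahy1-1, against 156, 77 and 146 in Col-0 (3.18 on the log2 scale, SE 0.32, limma adjusted p = 1.64e-05), and Col-7 and SAHY1OE had -0.92 and -1.14 against Col-0. AT2G40010, an L10 family protein, read 911, 925 and 974 in sahy1-1, against 247, 223 and 252 in Col-0 (1.96, limma adjusted p = 2.43e-06). AT1G17960, a threonyl-tRNA synthetase, read 409, 506 and 521 in sahy1-1, against 111, 110 and 165 in Col-0 (1.92, limma adjusted p = 2.94e-06). Each of these 3 genes was high in the mutant alone among the 4 groups.

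AT5G59240, an S8e family protein, had a smaller rise of 1.09 against Col-0 (0.99 and not called without sahy1-1 replicate 1), and Col-7 and SAHY1OE had -0.32 and -0.69. HLL, a mitochondrial ribosomal protein, read 596, 368 and 469 in sahy1-1, against 167, 166 and 130 in Col-0 (1.61, limma adjusted p = 2.71e-05), with Col-7 and SAHY1OE between at 0.78 and 0.71. AT2G18720, a translation factor, read 165, 160 and 188 in sahy1-1, against 26.8, 11.3 and 29.2 in Col-0 (3.05, limma adjusted p = 0.0166). The call of AT2G18720 was lost without Col-0 replicate 2 (2.61) or sahy1-1 replicate 3 (2.98).

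**Figure D4:**
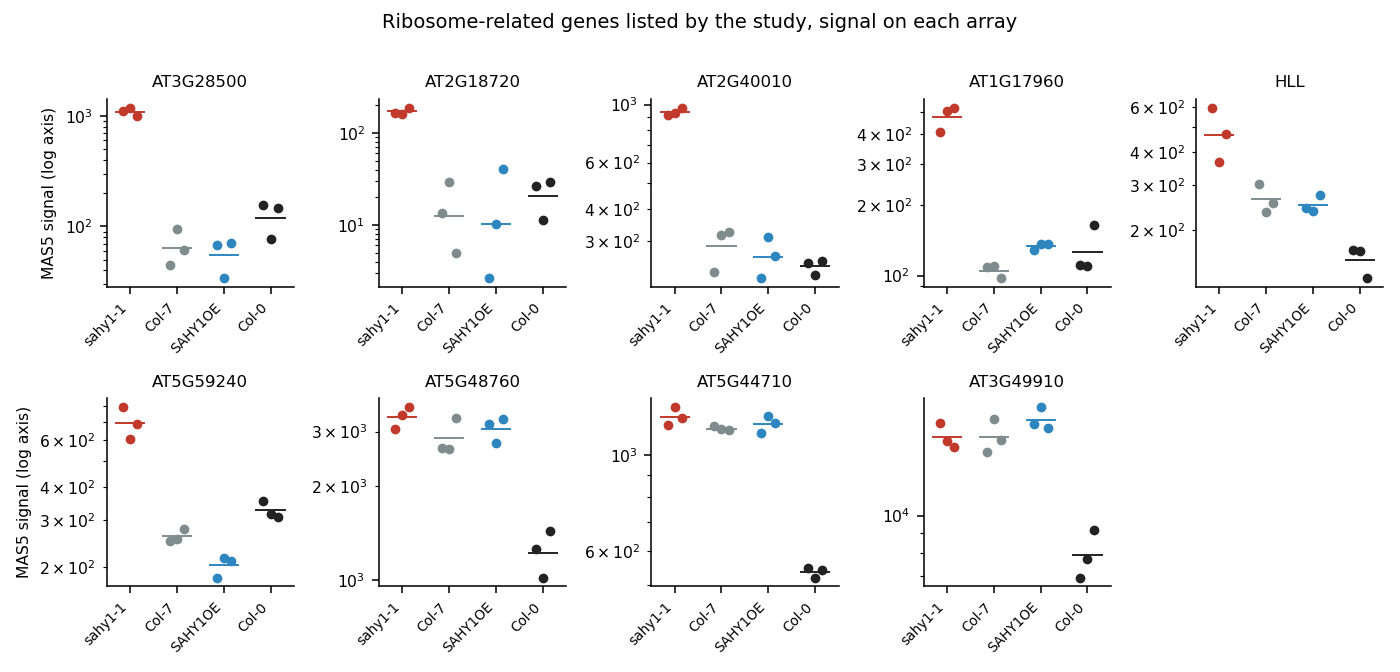
MAS5 signal (log axis) of the 9 ribosome-related genes of the study's list on each array, grouped as sahy1-1, Col-7, SAHY1OE and Col-0; points are arrays and bars geometric means. In AT3G28500, AT2G18720, AT2G40010, AT1G17960 and AT5G59240 sahy1-1 lies above all other arrays, HLL is highest in sahy1-1 and lowest in Col-0, and in AT5G48760, AT5G44710 and AT3G49910 only Col-0 stands apart, with 519 to 547 for AT5G44710.

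The 10 listed genes for making and processing ribosomal RNA had small positive values. All 10 were kept and above 0, with a median of 0.36 (median over all probe sets, 0.00). Neither limma nor the methods' unpaired test called any. An unadjusted limma p under 0.05 was reached by 6, and by 1961 of 13834 probe sets in this direction. A limma adjusted p under 0.05 was reached by 2, and by 7.7% of all probe sets in this direction. NRPA1, the largest subunit of RNA polymerase I, read 349, 366 and 413 in sahy1-1, against 238, 260 and 264 in Col-0 (0.56, limma adjusted p = 0.037), and YAO, a nucleolar protein of the U3 complex, had 0.55 (limma adjusted p = 0.0574). Against Col-7 their values were 0.21 and 0.88. The medians of the list were 0.02 in Col-7 and -0.02 in SAHY1OE against Col-0.

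NRPC2, the second largest subunit of RNA polymerase III, which makes the small ribosomal RNA and transfer RNAs, read 432, 462 and 447 in sahy1-1, against 299.8, 251 and 260 in Col-0 (0.73, limma adjusted p = 0.000604). With LSM1A of messenger RNA decapping (0.50, limma adjusted p = 0.021), it was among 14 RNA polymerase and Sm-like genes, and in that list too neither test called any (unadjusted p under 0.05 in 4 that were higher and 1 that was lower). The median of that list was 0.20. Of all 13834 probe sets, 1961 were higher and 1906 lower at an unadjusted limma p under 0.05.

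Genes for hormones and peptide signals changed singly. GH3.3, which joins auxin to amino acids, read 162, 244 and 206 in sahy1-1, against 48.4, 100.5 and 95 in Col-0 (log2 fold change 1.38, limma adjusted p = 0.0176). It was the 1 called of 5 auxin genes, was 0.83 above Col-0 in Col-7 and 1.26 in SAHY1OE without a call, and lost its call without Col-0 replicate 1 (1.04), sahy1-1 replicate 2 (1.24) or sahy1-1 replicate 3 (1.36). CLE41 and CLE44, which encode a peptide that holds back xylem formation, had 0.86 and 0.94 (limma adjusted p = 0.00141 and 0.0095), under the threshold on the fold. RALFL27, of a family of growth-inhibiting peptides, had 0.86 in sahy1-1, 0.80 in Col-7 and 0.64 in SAHY1OE.

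Of 7 defensin-like and cysteine-rich peptides kept, from 18 named on the array, 3 were called higher and none was marked. Over all probe sets 2.37% were called higher. Of the 7, 1 passed the filter through sahy1-1 without all 3 Col-0 arrays. PR-1-LIKE read 721, 623 and 508 in sahy1-1, against 214, 265 and 229 in Col-0 (1.38, limma adjusted p = 0.000127), with Col-7 and SAHY1OE at -0.03 and 0.15. PDF1.4 and PDF2.1, plant defensins, had 1.19 and 1.24, with Col-7 and SAHY1OE between (0.53 and 0.68 for PDF1.4, 0.56 and 0.59 for PDF2.1). Another, LCR69, had 0.53 (limma adjusted p = 0.0145), and PDF2.5 had -0.70 (limma adjusted p = 0.00379).

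Among transcription factors, AGL42, a MADS-box gene expressed at the quiescent centre of the root tip, read 262, 353 and 308 in sahy1-1, against 620, 638 and 603 in Col-0 (log2 fold change -1.02, limma adjusted p = 0.0009). Its call was lost without sahy1-1 replicate 1 (-0.91). It was the 1 called of 6 MADS-box genes that passed the filter, and AGL21 had -0.61. PTL, a trihelix factor of petal development, had 1.01, a value at the threshold that fell under it when Col-0 replicate 1 (0.87) or 2 (0.95), or sahy1-1 replicate 2 (0.96) or 3 (0.98), was left out. Neither limma nor the methods' unpaired test called any of 9 bZIP, 5 WRKY or 4 bHLH genes (unadjusted p under 0.05 in 2, 0 and 3, all lower), and bZIP58 had the largest of these values, -0.93.

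Other families gave single members. HTB11 was the 1 histone gene called of 6, and UBC18 the 1 ubiquitin enzyme of 29, both with marks from both groups. Of all probe sets, 2.37% were called higher. Of 12 tubulin and SPIRAL1-like genes, which build or bind microtubules, SP1L4 was called lower, SP1L5 and TUB1 had -0.81 and -0.64 and SP1L2 had 0.65 (limma adjusted p = 0.00113, 0.0116 and 0.00605). scpl35, a serine carboxypeptidase-like gene, had 0.95 in sahy1-1 (limma adjusted p = 0.00117), 0.09 in Col-7 and 0.15 in SAHY1OE, in a list of 16 with a median of 0.25. ATG8H, of a family that coats autophagosomes, had -0.51 (limma adjusted p = 0.0476), and 8 of 10 autophagy genes lay below 0, with a median of -0.25. CML43, a calmodulin-like gene, and LTI30, a dehydrin of the cold response, were not called in sahy1-1, at 0.57 and 0.89, and had higher values in Col-7 (1.67 and 1.02) and SAHY1OE (1.04 and 1.17).

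Some called genes with a symbol lie outside the lists or alone in them, and are given because they have one, chosen after the values were seen. ROXY2, a glutaredoxin, read 123, 148 and 131 in sahy1-1, against 258, 305 and 279 in Col-0 (-1.07). SUFE2, which activates the sulfur step of iron-sulfur cluster assembly, read 683, 735 and 705 in sahy1-1, against 1496, 1393 and 1460 in Col-0 (-1.03, limma adjusted p = 5.6e-05). SIS had -1.14 and SP1L4, of a family that binds microtubules, -1.06. ATMPK13, a mitogen-activated protein kinase, had 1.14. None of these 5 calls was marked. With log2 of the signal plus 32, ROXY2 (-0.91), ATMPK13 (0.93) and SP1L4 (-0.96) were under the threshold on the fold, and SP1L4 was also under it without Col-0 replicate 1 (-0.91).

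The unmarked rises of genes known here only by a locus code were led by AT2G04050, with 314, 344 and 395 in sahy1-1, against 8.01, 13 and 7.45 in Col-0 (log2 fold change 5.25, limma adjusted p = 0.000362), and AT2G03130, with 324, 199.6 and 278, against 3.85, 30.1 and 6.64 (4.84, limma adjusted p = 5.15e-05). AT5G60250, AT2G43660, AT2G18190, AT5G58610, AT2G42660, AT3G24780 and AT2G34340 followed with 4.82, 3.18, 2.68, 2.60, 2.35, 2.26 and 2.23. AT2G34340 had the smallest standard error of these 9, with 808, 892 and 887 in sahy1-1, against 169, 182 and 203 in Col-0 (SE 0.13). AT5G58610 lost its call without Col-0 replicate 2 (2.22), sahy1-1 replicate 1 (2.63) or sahy1-1 replicate 3 (2.52). AT2G04050 and AT2G03130 had Col-0 signals far below the filter level. Both passed the filter through sahy1-1 alone, so the size of their folds is uncertain. AT3G24780, whose signals are given below, also passed the filter through sahy1-1 alone, and the size of its fold is uncertain too. The methods' unpaired test did not call AT2G03130, AT5G60250, AT2G43660, AT2G18190, AT5G58610 or AT2G42660. AT2G04050, AT3G24780 and AT2G34340 kept their calls under that test.

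AT3G43690, a pseudogene in RefSeq, counted as unmarked by the rule although its values were alike in all 3 comparisons, 3.30 in sahy1-1, 3.41 in Col-7 and 3.32 in SAHY1OE. Its Col-0 signals, 19.4, 1.41 and 70.2, spread widely, and its call was lost without any 1 of the 3 sahy1-1 arrays (3.57, 3.25 and 3.09). AT3G24780 and AT5G14650 went the opposite way in Col-7, with -2.71 and -1.06, and sahy1-1 was above Col-7 by 4.97 and 2.21. AT3G24780 read 238, 248 and 290 in sahy1-1, 6.79, 8.73 and 9.36 in Col-7 and 40.3, 58.8 and 65.8 in Col-0. Its Col-7 and Col-0 signals were all under the filter level, so the size of its differences is uncertain.

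The unmarked falls were led by AT4G09110, with 6.33, 44.2 and 2.44 in sahy1-1, against 144, 154 and 153 in Col-0 (log2 fold change -4.09, limma adjusted p = 0.00101), and AT1G80320, AT4G24350 and AT1G34510 followed with -3.52, -3.30 and -3.22. All 4 had mutant signals under the filter level, so the size of these folds is uncertain, and the methods' unpaired test called none of them (adjusted p = 0.155, 0.136, 0.134 and 0.11). Among brighter genes, AT1G79990 read 143, 121 and 178 in sahy1-1, against 730, 733 and 809 in Col-0 (-2.38, limma adjusted p = 1.4e-07). AT1G52820 read 333, 315 and 293 in sahy1-1, against 1436, 1322 and 1209 in Col-0 (-2.07, limma adjusted p = 2.71e-06). AT4G16000, AT3G12540, AT5G19800, AT3G49960, AT3G61300 and AT5G04960 had values from -2.36 to -1.80. All mutant signals of AT4G16000, AT3G12540, AT5G19800 and AT3G61300 were under the filter level, as were those of 98.6 and 87.9 of AT3G49960. The size of these folds is uncertain too.

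The rises marked in both groups had a median signal of 415.8 in sahy1-1, 414.9 in Col-7, 420.8 in SAHY1OE and 97.4 in Col-0. The mark was set by calls above the same Col-0 arrays, so a low Col-0 level describes these rises and is no finding. AT1G23960 read 1173, 1459 and 1267 in sahy1-1, against 29.7, 2.81 and 3.85 in Col-0 (log2 fold change 7.56), and Col-7 and SAHY1OE were at 1195 to 1316 and 1222 to 1242. HTB11, a histone H2B gene, read 1858, 1913 and 1712 in sahy1-1, against 23.1, 95.6 and 97.6 in Col-0, where Col-7 (1613 to 1847) and SAHY1OE (1722 to 1943) matched the mutant level. Of the 128 rises marked in both groups, 58 were under the 40th percentile on all 3 Col-0 arrays, against 53 of the 184 unmarked rises. The marking rule favours low Col-0 signals, so this difference is no finding either. AT5G43030, AT1G43590, AT3G48080, AT3G53650, AT3G43740 and AT5G45220 had values from 6.20 to 4.92 in sahy1-1. For each of these, Col-0 alone was low.

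CYP71, a cyclophilin that acts on chromatin, and UBC18, a ubiquitin-conjugating enzyme, were also marked by both groups, with 1.76 and 1.18 in sahy1-1, 1.63 and 1.20 in Col-7 and 1.58 and 1.06 in SAHY1OE. QQS, a gene of starch and protein balance, was marked by Col-7 but did not share its level. It read 58.4, 48.3 and 34.2 in sahy1-1, 938, 772 and 596 in Col-7, 2.17, 8.95 and 45.9 in SAHY1OE and 1.82, 10.7 and 9.19 in Col-0. QQS passed the filter through Col-7 alone. Its sahy1-1 and Col-0 signals were all under the filter level, so the size of its fold is uncertain. The QQS call was lost without Col-0 replicate 1 (2.21), sahy1-1 replicate 1 (2.85) or sahy1-1 replicate 2 (2.99). AT4G12490 read 1439, 863 and 551 in sahy1-1, against 88.4, 65.5 and 71.7 in Col-0, with Col-7 and SAHY1OE between at 213 to 234 and 136 to 185.

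Among marked falls, AT3G29410 read 444, 568 and 478 in sahy1-1, against 4156, 3954 and 4490 in Col-0. Its signals were 1233 to 1729 in Col-7 and 1085 to 1878 in SAHY1OE, between the other groups as for SWEET11. AT3G28310 and AT3G28320, neighbouring loci, read 10.9, 3.71 and 8.74 and 48.5, 50.2 and 8.02 in sahy1-1, against 128, 190 and 168 and 321, 348 and 335 in Col-0. Their log2 fold changes were -4.50 and -3.63 in sahy1-1, -4.98 and -3.33 in Col-7 and -3.65 and -3.53 in SAHY1OE. AT1G26530, AT5G35940, AT1G02300 and AT5G51930 had values from -3.12 to -2.22. AT5G51930 kept its direction but lost its call without any 1 of 5 arrays, with values between -2.26 without Col-0 replicate 3 and -1.97 without sahy1-1 replicate 3, the others being -2.24 without Col-0 replicate 1, -2.14 without Col-0 replicate 2 and -2.15 without sahy1-1 replicate 1.

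Marked and unmarked calls were spread differently over the chromosomes. Of 7324 nuclear genes kept, 1.16% were marked rises, and these were 1.53%, 1.74% and 1.42% on chromosomes 1, 3 and 5, 0.46% on chromosome 4 and 0 of 1083 on chromosome 2. Unmarked rises were 1.75% on chromosome 2, where SAHY1 lies, and 0.644% to 1.26% on the others. Unmarked falls made up 1.34% to 1.84% of each chromosome. Among the 71 genes measured nearest to SAHY1 in gene order (21 before and 50 after it), 2 were called, PDF2.1 and AT2G03130, which is 2.82%, against 4.01% of all genes. The window of 50 ends just before AT2G04050, the next measured gene, and with it 3 of 72 (4.17%) were called. These shares are descriptions and were not tested.

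**Figure D5:**
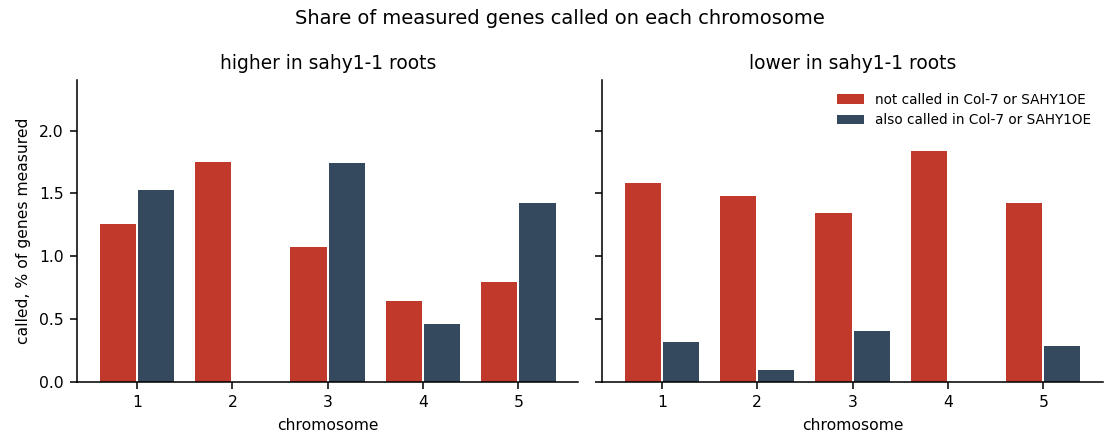
Share of measured nuclear genes called on each chromosome (vertical axis, %) for rises (left) and falls (right) in sahy1-1 roots, with unmarked calls in red and calls also made in Col-7 or SAHY1OE in dark. Marked rises are 1.74% on chromosome 3 and 0 on chromosome 2, and unmarked falls are 1.34% to 1.84% on each chromosome.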

How the data were processed

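The authors deposited MAS5 signal intensities of ATH1 arrays for 12 root samples, on a linear scale with a trimmed mean near 500 on each array. The submitters' notes name GeneSpring GX 10.0.1, with the MAS5 version not given in the sources used here. No sequencing depth applies, and 3 arrays per group limit the precision. Control probe sets (64 of 22810) were left out.

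Signals were floored at 1 and taken to log2. The filter on low values (the 40th percentile of each array, reached in all 3 arrays of some group) left 13834 probe sets. Group means of all 12 arrays were fitted with limma 3.58.1 in R 4.3.3 (lmFit, eBayes, Benjamini-Hochberg), with calls at an adjusted p under 0.05 and more than a 2-fold change. The labels give each sample's group. Each limma p-value sets the difference between 2 group means against a moderated spread within groups, estimated over all 12 arrays. A call was marked when Col-7 or SAHY1OE was called in the same direction against Col-0. The fit was tested on simulated data. Python 3.11.15, pandas 2.3.3 and matplotlib 3.10.9 made tables and figures.

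The platform table names 1 gene for 13513 probe sets (59.4%), several for 503 and none for 8730, and only the first were named. RefSeq (TAIR10.1) gave symbols and gene order for 13436 of them. Of 43 gene lists, by symbol, locus or chromosome, 42 had a kept member, and 410 probe sets in all. Named genes are SAHY1, the study's ribosome-related genes, the 15 largest unmarked rises and falls and the 8 largest of each marked in both groups, among genes whose sahy1-1 and Col-0 arrays do not overlap, and up to 5 called members of a list (otherwise up to 2 kept members). Members and lists were chosen with earlier results of these data known. The lists were first planned by gene descriptions; the reference tables hold none, so they were rebuilt from symbols and locus codes after the files were opened, and some planned families could not be formed. Other list members that the text names, called or not, were picked after their values were seen. Alternatives were quantile normalization, log2 of the signal plus 32, other filters, the methods' unpaired test, a replicate block, a fit to the compared groups alone, no fold threshold and leaving out each array. Detection calls, probe sequences and raw images were not analysed here, and AT3G18610 has no probe set named here.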

Additional observations from a re-analysis of the deposited data

How the results depend on the processing

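With the methods' unpaired test, 169 probe sets were called higher and 116 lower (322 and 237 at an unadjusted p with the same fold), and 25 and 1 of these calls were marked. A filter at the 60th percentile left 188 higher and 142 lower, with 86 and 22 marked, and no threshold on the fold gave 1065 and 1012, with 330 and 148 marked. In the methods' unpaired test the cause was not tested, and in the other 2 the number of probe sets or the threshold differs by construction. Leaving out each array gave 322 to 367 higher and 220 to 273 lower, with 141 to 153 and 31 to 40 marked. The other alternatives, and marking by fold alone, which was chosen after seeing the data (149 and 41), stayed within 1.5 times. SAHY1 kept its direction, between -3.98 and -1.81 on the log2 scale without 1 array, and missed the threshold with no filter (-3.07, limma adjusted p = 0.0788) and with the methods' unpaired test (-3.07, adjusted p = 0.261). The arrays share only a number between groups (correlation of deviations from the group means -0.10 to 0.24 between arrays of the same number, with 3 of 6 sahy1-1 and Col-0 arrays correlating best with their own number), and the replicate block gave 331 higher and 244 lower, with 146 and 38 marked. No named gene reversed its direction, but 41 of the 81 called lost their call under at least 1 alternative, 33 of them under the methods' unpaired test (21 under it alone) and 16 when an array was left out. Besides those given above with their values, the methods' unpaired test did not call GSTU26, MGL, AER, ATGSTF13, EXPA7, SWEET3, SWEET16, TPS-CIN, GH3.3, PTL, PDF2.1, VPS2.2, CYP71, QQS, AT2G03130, AT5G60250, AT2G43660, AT2G18190, AT5G58610, AT2G42660, AT3G43690, AT4G16000, AT5G19800, AT3G48080, AT3G28320, AT1G26530 or AT5G51930 (adjusted p = 0.0501 for SWEET3 to 0.322 for AT3G43690). Of the calls lost with log2 of the signal plus 32, those not given above are AER, AGL42, ATGSTF13, EXPA7, PDF1.4 and PTL, and the calls of AT2G18720, AT1G26530, AT3G43690, AT5G51930, AT5G58610, GH3.3, PTL and QQS were lost with no filter. Signals under the filter level leave the size of a fold uncertain.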
